A study of Mus musculus with 5 samples.

Results

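C1q-low monocyte-like cells were the Lyz2-expressing cells of breast tumours that carried transcripts of recruited monocytes and almost no complement C1q. A cell was a member when it had at least 3 UMIs (unique molecular identifiers, 1 per captured transcript) of Lyz2, at least 2 UMIs of Fn1, Ccr2, Ly6c2, Plac8 and Ccl6 together, and at most 1 UMI of C1qa, C1qb and C1qc together. It also had to have no UMI of Csf3r, Flt3, Cd79a or a Cd3 chain, and at most 3 UMIs of Krt8 and Krt18 together. By this rule 221 of 19533 kept cells, or 1.13%, were members. The rule used measured values, so the levels of its own genes are given as a description.

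The tumours came from MMTV-PyMT mice on the FVB/N background, in which a mammary tumour virus promoter drives polyoma middle T antigen in the mammary epithelium. The mice received, from 7 weeks of age and for 6 weeks, 5 mg/kg intraperitoneally 2 times a week of either the mouse IgG2a isotype antibody C1.18.4 (6 tumours) or the anti-VEGF-A antibody B20-4.1.1 (9 tumours), and each tumour came from a separate mouse. Cells of 3 tumours at a time were labelled with 4 oligonucleotide tags per tumour and run as 1 pool, giving 2 isotype and 3 B20-4.1.1 pools. No pool mixed the antibodies, so effects of pool and of antibody cannot be told apart. The question put to these cells was whether their share or their transcripts differed between tumours treated with the isotype and with B20-4.1.1.

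Classical monocytes leave the bone marrow along a CCR2 gradient, enter inflamed tissue and tumours, and there lose Ly6C and acquire macrophage or dendritic features. Macrophages that have settled in a tumour typically make large amounts of C1q and apolipoprotein E. Tissue samples can also hold patrolling, nonclassical monocytes of the vessels, which have little Ly6C.

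Per tumour, kept cells numbered 511 to 2341 and deposited gene UMIs 4014509 to 23726246. In 3 B20-4.1.1 tumours (3, 4 and 6) T-like cells made up 56.7%, 65.6% and 65.2% of kept cells, against 3.08% to 20.8% in the other tumours. Members had a median of 5935 UMIs and 2040 genes, close to the 6082.5 UMIs of C1q-high cells (cells with at least 5 C1q UMIs), while T-like cells had 4081. All 221 members had their highest tag count from their own tumour's tags, which made up 96.0% to 99.2% of the members' tag UMIs. Of 19489 distinct kept barcodes, 44 occurred in more than 1 tumour and none of these within a single pool.

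Of the genes the rule used, Lyz2 (lysozyme, chromosome 10, 117277331 to 117282321 on GRCm38) was at 126 UMIs per 10000 summed over members, against 47.3 in C1q-high cells. Fn1 (fibronectin, chromosome 1, 71585520 to 71653200) was at 25.9 against 4.23, and Ccl6 (a myeloid chemokine, chromosome 11, 83587882 to 83593087) at 19.7 against 3.47. Plac8 (chromosome 5, 100553725 to 100572245) stood at 8.92 against 0.276 and Ccr2 (the receptor for monocyte-recruiting CCL2, chromosome 9, 124101950 to 124113557) at 7.77 against 1.61. Ly6c2 (the classical monocyte surface antigen, chromosome 15, 75108158 to 75111970) was at 1.79 against 0.0557. With every cell thinned to 2500 UMIs, Ly6c2 was found in 16.7% of members, Plac8 in 44.8%, Ccr2 in 67.0%, Ccl6 in 73.3% and Fn1 in 77.4%. Ly6c2 was also found in 11.4% of T-like cells and in 0.0327% of Krt8/Krt18-high cells. Most members therefore had no Ly6c2 UMI at this depth.

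Few cells lay at the edges of the rule. Of cells that passed every other condition, 3 had 3 Lyz2 UMIs and were members, and 5 had 2 Lyz2 UMIs and were not. For the monocyte sum, 6 cells had 2 UMIs and 8 had 1 UMI. For C1q, 205 members had 0 UMIs and 16 had 1 UMI, while 7 cells had 2 UMIs and 452 cells had 8 or more.

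The label was then compared with markers that the rule did not use. Of 20 classical monocyte markers, 13 were found in at least 25% of members after thinning, and 17 of 20 were higher than in C1q-high cells. S100a6, S100a4 (calcium-binding proteins of motile cells), Ifitm3 (an interferon-induced membrane protein), Cebpb (a monocyte transcription factor) and Cd14 (the lipopolysaccharide co-receptor) were found in 95.5%, 91.0%, 89.6%, 77.8% and 74.7% of members. Among those that fell short of 25% were Vcan (versican), Chil3, Hp (haptoglobin), Thbs1, Fcgr1 and Sirpb1c, with 20.4%, 23.1%, 21.7%, 15.4%, 23.5% and 4.52%. As a measure of free RNA, Vcan and Chil3 were found in 0.149% and 0.0743% of T-like cells, which should lack both.

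Markers of other cells were mixed. The macrophage list reached 25% of members for 7 of 22 genes, among them Apoe in 64.3%, Ctsd in 59.7%, Cd68 in 47.5% and Mrc1 (the mannose receptor) in 34.8%. Of the 22 genes, 4 were higher than in C1q-high cells, among them Mrc1 at 4.04 against 1.64 UMIs per 10000 and Gpnmb at 0.379 against 0.0880. Apoe, a lipid carrier, was at 31.1 UMIs per 10000 in members and 307 in C1q-high cells, and T-like cells had a UMI of it in 18.8%. Of the dendritic list, Flt3 (excluded by the rule), Xcr1, Clec9a, Zbtb46 and Ccr7 had 0 UMIs in all members, while Cd74 and H2-Ab1, which macrophages share, were found in 81.0% and 71.5%. The lectin genes Cd209a, Clec10a and Mgl2 of the same list were at 0.744, 1.10 and 0.881 UMIs per 10000 in members, above the 0.616, 0.787 and 0.787 of dendritic-like cells, and Batf3 was at 1.05 against 1.20. The label is thus not free of dendritic and macrophage genes. All 5 mast cell and basophil markers had 0 UMIs, and the T and NK, B, endothelial and fibroblast lists summed to 0.131, 0.359, 0.346 and 0.0914 UMIs per 10000. The epithelial list summed to 11.6 in members and 15.5 in T-like cells. Of 10 nonclassical monocyte markers, Nr4a1 alone reached 25% of members. The milk protein genes Wfdc18 and Csn3 were found in 72.4% and 58.4% of members, at or below the 77.3% and 62.3% of T-like cells, and were read as background. Spp1 (osteopontin) was found in 51.1% of members and 48.8% of T-like cells, so that its detection share does not set members apart. Its level was 16.5 UMIs per 10000 in members, 12.1 in C1q-high and 6.06 in T-like cells.

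The neutrophil list needs a separate remark. It summed to 78.2 UMIs per 10000 in members against 0.730 in C1q-high cells, although Csf3r was 0 by the rule. Of all S100a8 and S100a9 UMIs (the calprotectin subunits) of the members, 99.5% lay in 4 cells, with 5796, 3899, 830 and 59 UMIs. The next member had 6. All 4 cells were from isotype tumours, 3 from isotype tumour 1 and 1 from isotype tumour 2. By tumour the list's sum ran from 0.223 to 1155 in the isotype group and from 0.747 to 1.39 in the B20-4.1.1 group. By these genes the 4 cells go against the label, and their part in the treatment values is given below as a fit without them.

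**Figure D1:**
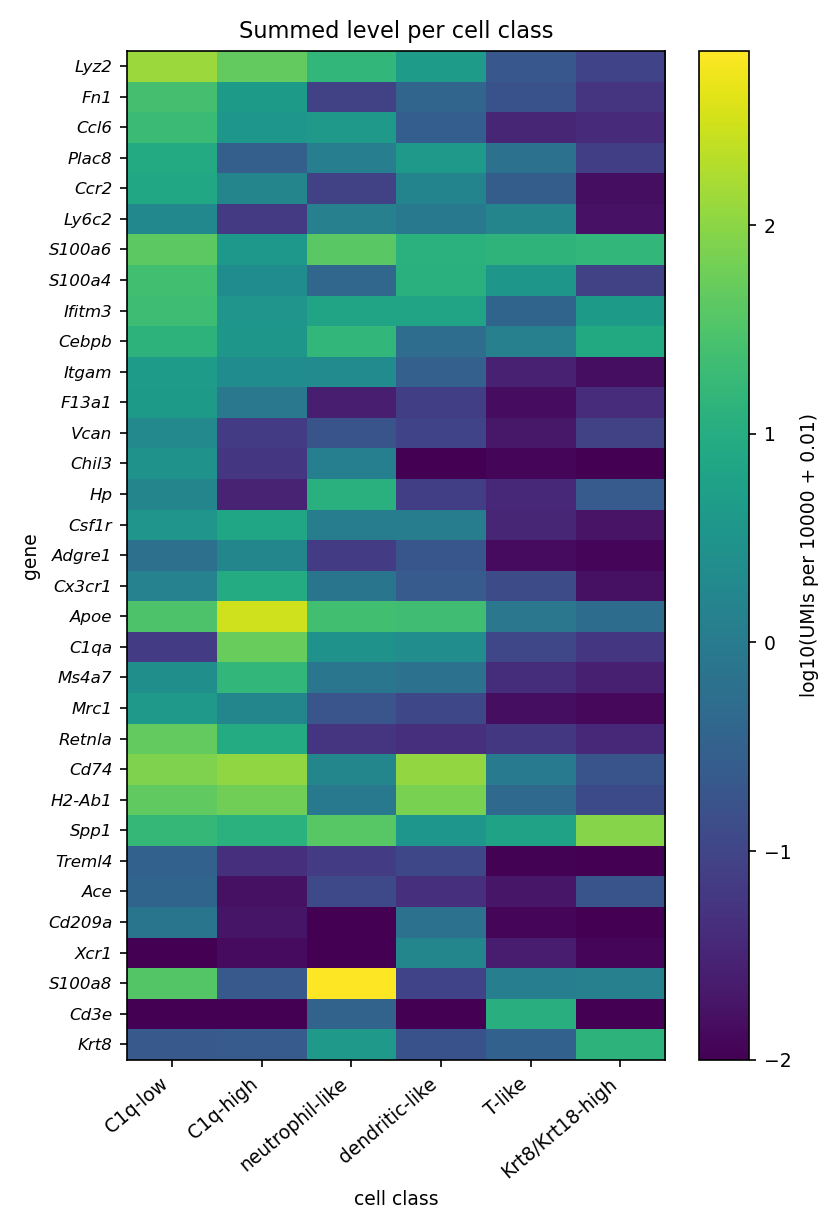
Levels of 33 genes in the 6 cell classes, as log10 of UMIs per 10000 (+ 0.01) of the counts summed over all cells of a class. C1q-low cells share Cd74 and H2-Ab1 with C1q-high cells, hold Apoe at 31.1 against 307 UMIs per 10000, and show S100a8, of which nearly all UMIs lie in 4 cells.

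Against C1q-high cells of the same tumours, values are a description, because C1q chose both groups. In the 4 tumours with at least 20 cells of each, genes at 50 CPM (UMIs scaled to a common library size) or more were ranked by the median log2 difference. Those higher in C1q-low cells in all 4 tumours began with Hp at 6.11, Cd209a (a C-type lectin, DC-SIGN) at 5.49, Mcemp1 at 4.95, F10 (coagulation factor X) at 4.72 and Slpi (a protease inhibitor) at 4.50. Chil3 followed at 3.90, Saa3 (serum amyloid A3) at 3.89, Ltb4r1 (the leukotriene B4 receptor) at 3.71, Cd226 at 3.67 and Traf1 at 3.63. These included secreted plasma and defence proteins alongside a lipid chemoattractant receptor. Saa3 was the least even of them, with a difference of 0.39 in the lowest tumour and 6.57 in the highest. Cd209a was found in 4.98% of members after thinning.

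Among genes lower in C1q-low cells, Vcam1 (a vascular and macrophage adhesion molecule) had 0 UMIs in members and 1.64 per 10000 in C1q-high cells. Cxcl14 had a median log2 difference of -5.60, Zmynd15 of -5.11, Il1a (interleukin 1 alpha) of -4.81 and Hpgds (prostaglandin D synthase) of -4.40. The purinergic and lipid receptors P2ry13 and Gpr34, found in settled macrophages and microglia, were at -4.38 and -4.28, and Ms4a7 at -3.75. Apoe was at -3.76. Cx3cr1, the fractalkine receptor, was at 1.39 UMIs per 10000 in members and 9.53 in C1q-high cells. MHC class II was closer, with H2-Ab1 at 45.4 and 60.2.

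Members were not alike among themselves. They are described by 4 genes chosen after their values were seen: Ly6c2 (at least 1 UMI), Retnla (at least 3 UMIs), Treml4 (at least 1 UMI) and Hilpda (at least 1 UMI). Ly6c2 was found in 49 members, Retnla in 51, Treml4 in 27 and Hilpda in 51, while 73 members had none of the 4 and 119 had exactly 1. Detection depends on depth, and Retnla cells had a median of 8299 UMIs against 5676.5 in the other members. Shares of other genes are therefore given after thinning.

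Ly6c2 was not detected in any member with at least 3 UMIs of Retnla, and members with fewer Retnla UMIs were not checked for both genes. Of the 51 members with Retnla, 0 had a UMI of Ly6c2, which allows a share of up to 5.88% of cells with a UMI (3 counts, counting error only) and sets no limit on cells that express the gene below detection. None had a UMI of Treml4. Retnla (resistin-like alpha, chromosome 16, 48842551 to 48844461) is a secreted product of alternatively activated macrophages. Its level in members was 47.2 UMIs per 10000, against 9.29 in C1q-high cells and 0.0503 in T-like cells. Members with Retnla also had Mrc1 in 90.2% (18.2% of the others), Fcrls (an Fc receptor-like scavenger receptor) in 88.2% (9.41%), Cfp (properdin) in 86.3% (31.8%), Lpl (lipoprotein lipase) in 70.6% (9.41%) and Lyz1 in 58.8% (4.12%). The MHC class II chaperone genes H2-DMa and H2-DMb1 were in 92.2% and 90.2% (44.1% and 41.8%), and H2-Ab1 was in 100% (62.9%). Ccr2 was in 92.2% (59.4%) and Fn1 in 100% (70.6%).

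The same cells seldom had genes that were common in the rest. Lst1 was in 3.92% of members with Retnla and 76.5% of the others, Aif1 in 1.96% and 50%, Plac8 in 0% and 58.2%, Ms4a6c in 11.8% and 76.5%, and Apoe in 15.7% and 78.8%. Chil3, Hp and Cx3cr1 were in 0% of them and in 30%, 28.2% and 30% of the others, and Vcan in 1.96% and 25.9%. For these 51 cells, Plac8, Chil3, Hp, Vcan and Ly6c2 thus go against the label, and the cells are called here by Retnla. Ccr2, Fn1 and Ccl6 were among the genes by which the rule chose members, so their presence is no support for the label.

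Ly6c2 cells more often had several classical monocyte genes, of which Plac8, Chil3 and Hp were also frequent in Treml4 cells (below). Plac8 was found in 87.8% of them and 32.6% of the other members, Ms4a4c in 65.3% and 19.8%, Chil3 in 57.1% and 13.4%, Vcan in 46.9% and 12.8%, and Hp in 46.9% and 14.5%. MHC class II was lower, with H2-Ab1 in 40.8% and 80.2% and H2-DMb1 in 18.4% and 62.8%. Fcrls was in 0% and 35.5%, and Mrc1 in 8.16% and 42.4%. Ccr2 was found in 71.4% of Ly6c2 cells and 65.7% of the others, and Fn1 in 75.5% and 77.9%.

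Treml4 cells held genes of patrolling, nonclassical monocytes together with classical monocyte genes. Gngt2 was found in 92.6% of them and 26.8% of the other members, Itgal (the integrin chain of LFA-1) in 66.7% and 10.8%, Pou2f2 (a transcription factor of these cells) in 59.3% and 11.9%, Ace (angiotensin-converting enzyme) in 40.7% and 3.09% and Cx3cr1 in 48.1% and 19.6%. Ly6c2 was also detected in 11 of the 27 cells. Plac8 was in 88.9% of Treml4 cells and 38.7% of the others, and Chil3 in 59.3% and 18.0%. Hp was in 44.4% and 18.6%, and Vcan in 29.6% and 19.1%. Fn1 and Ccr2 were in 55.6% and 44.4% of Treml4 cells, below the 80.4% and 70.1% of the others.

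Hilpda cells shared genes that low oxygen induces. Hilpda encodes a lipid droplet protein, and members with it had Vegfa (the angiogenic factor that B20-4.1.1 binds) in 51.0% against 8.82% of the others. Bnip3 (a mitophagy receptor) was in 51.0% against 9.41%, Mif in 80.4% against 40% and Ldha (lactate dehydrogenase) in 96.1% against 72.9%. Outside the hypoxia list, Hif1a (the oxygen-regulated transcription factor subunit) was in 72.5% against 44.1% and Arg1 (arginase) in 23.5% against 2.35%. Clec4d was in 64.7% against 16.5%, Tgm2 in 54.9% against 11.2% and Basp1 in 56.9% against 14.7%. Hilpda is not restricted to myeloid cells, and 9.70% of T-like cells had a UMI of it after thinning, against 15.8% of members.

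**Figure D2:**
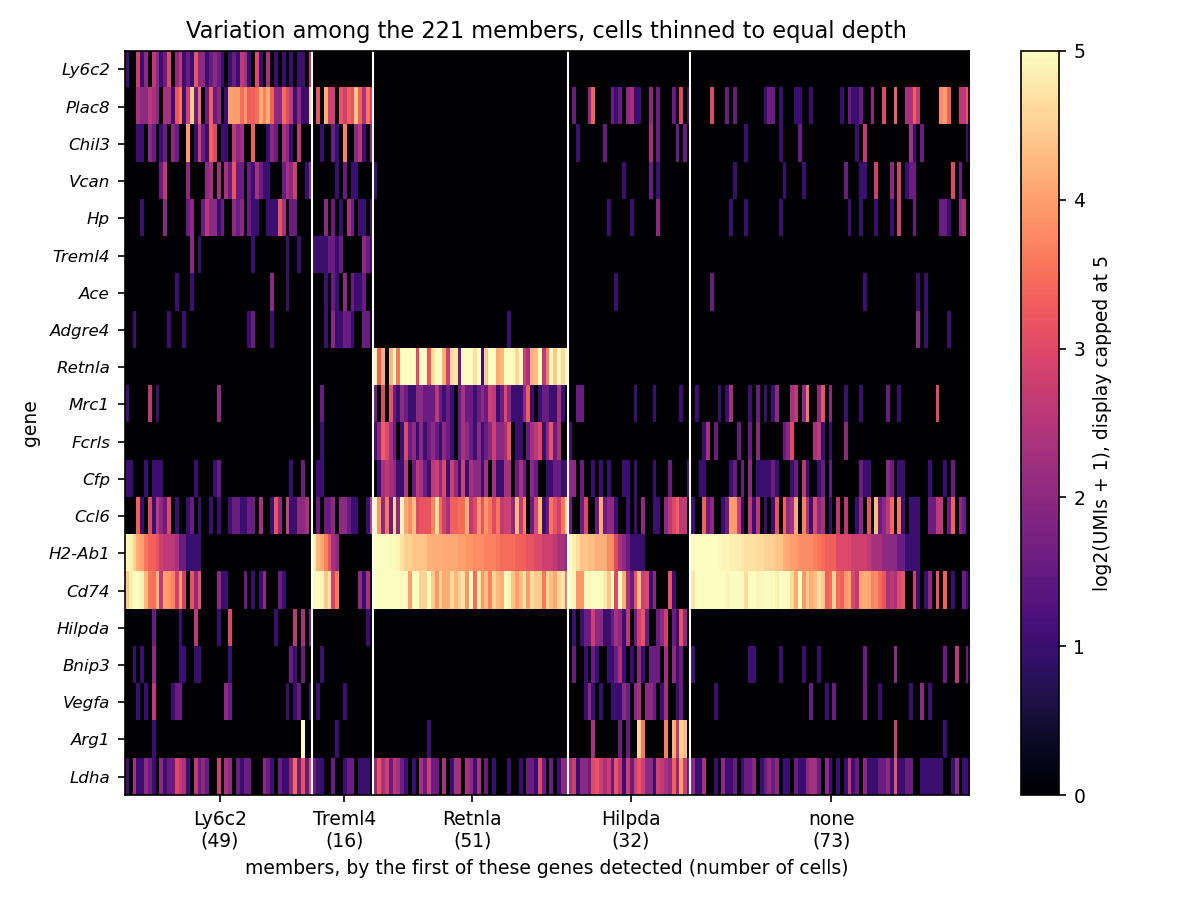
The 221 members (columns) and 20 genes (rows), as log2 of UMIs + 1 after each cell was thinned to 2500 UMIs, with the colour capped at 5. Columns are ordered by the first of Ly6c2 (49 cells), Treml4 (16), Retnla (51) and Hilpda (32) that a cell met, then by H2-Ab1, and 73 cells met none of them. Mrc1 and Fcrls are seen mostly in the Retnla block, which is empty for Plac8, Chil3 and Hp.

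These kinds of cells were spread unevenly over tumours. Of the 11 tumours with at least 10 members, Ly6c2 cells made up 5.71% to 58.3% of members in the 6 isotype tumours (median 29.9%) and 10% to 30% in the 5 B20-4.1.1 tumours (median 20%). Retnla cells made up 0% to 35.7% (median 6.34%) and 8.33% to 50% (median 20%). Hilpda cells made up 2.86% to 40% (median 19.9%) and 10% to 43.3% (median 33.3%). The groups overlapped for all 3 and no test was made, since the genes were chosen from these cells. Retnla had UMIs in members of all 15 tumours. Its level was below 1 UMI per 10000 in isotype tumours 1, 3 and 6 (0.105, 0.977 and 0.147) and reached 63.7 and 61.8 in isotype tumours 4 and 5. In the 5 B20-4.1.1 tumours with 10 members it ran from 1.04 to 97.2.

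The share of C1q-low cells among kept cells did not differ between treatments beyond the spread of tumours. It ran from 0.427% to 2.74% in isotype tumours (median 1.01%, mean 1.23% ± 0.819 SD, n = 6) and from 0.495% to 2.38% in B20-4.1.1 tumours (median 1.07%, mean 1.14% ± 0.567 SD, n = 9). The ranges overlapped almost wholly, and the highest tumour was in the isotype group (isotype tumour 5, 35 of 1278 cells, exact 95% interval 1.91% to 3.79%). The difference of means was -0.0990 percentage points (exact two-sided permutation test over tumours, p = 0.785). Intervals cover counting error only. Counted among cells other than T-like, the difference was 0.508 points (p = 0.445, exact permutation test), of opposite sign.

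Relative to C1q-high cells, C1q-low cells made up 7.32% to 38.9% of the 2 classes together in isotype tumours (mean 17.5% ± 13.9 SD, n = 6) and 8.57% to 50% in B20-4.1.1 tumours (mean 25.6% ± 15.0 SD, n = 9). The difference of 8.13 points was within the spread of tumours (exact two-sided permutation test, p = 0.303; over both share tests the Benjamini-Hochberg adjusted values were 0.607 and 0.785). Without isotype pool 1, whose 3 tumours had 7.32% to 10.6%, the difference was -0.583 points. The 3 highest B20-4.1.1 tumours, 3, 4 and 6, were those rich in T-like cells and had 7, 13 and 13 C1q-high cells, the fewest of all tumours.

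**Figure D3:**
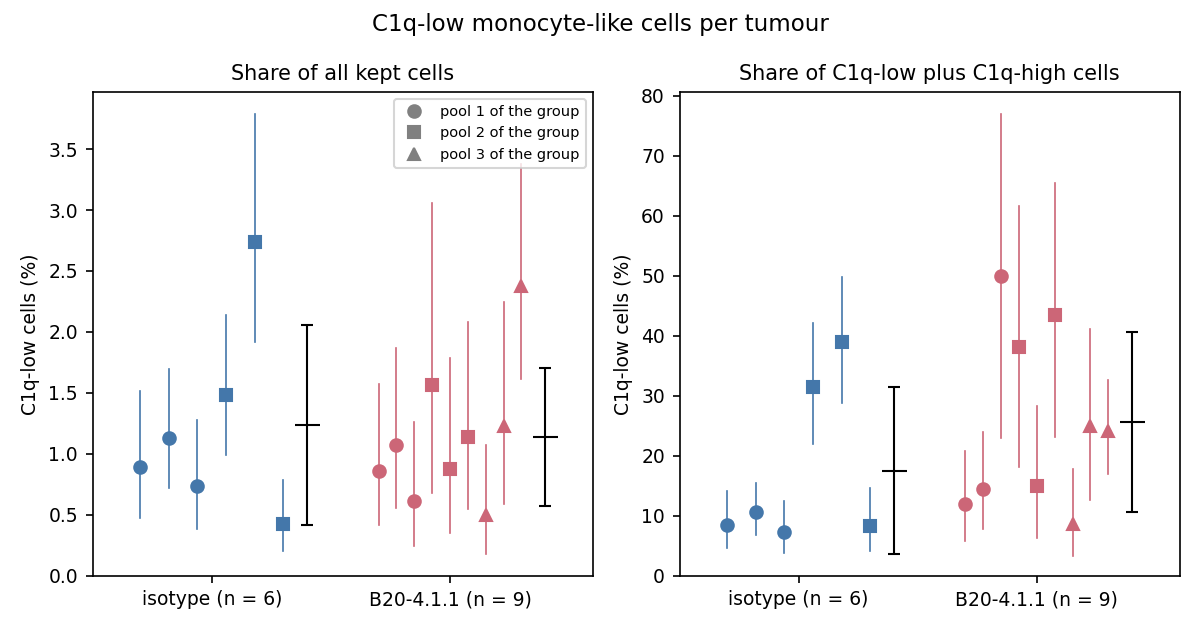
Share of C1q-low cells in each tumour, of all kept cells (left) and of C1q-low and C1q-high cells together (right), in percent. Thin lines are exact 95% binomial intervals, marker shapes are pools and black bars are the mean ± SD of 6 isotype and 9 B20-4.1.1 tumours. The ranges of the groups overlap in both plots.

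For expression under treatment, counts of the members were summed per tumour. Only 3 isotype tumours and 1 B20-4.1.1 tumour had 20 members, so the fit took the tumours with at least 10: all 6 isotype tumours and B20-4.1.1 tumours 1, 2, 6, 8 and 9, with 193 members. No gene passed an adjusted p of 0.05 in edgeR's quasi-likelihood test (0 of 1552 genes tested, 0%), and 85 genes (5.48%) had an unadjusted p under 0.05, 53 of them higher with B20-4.1.1 and 32 lower. Without the 4 members rich in S100a8 and S100a9, 0 of 1156 genes were called and 77 had an unadjusted p under 0.05. DESeq2's Wald test on the same sums called 2 genes, Ctss and Higd1a, both higher with B20-4.1.1 (adjusted p = 0.0108 for each). Fits that took the pools into account called none: limma voom with pool as a random effect (within-pool correlation 0.269) had a smallest adjusted p of 0.488, and edgeR on sums per pool one of 0.672, with 77 and 112 genes at an unadjusted p under 0.05. The genes below are those of smallest p in each direction and were not called by edgeR unless said otherwise. Genes chosen in this way tend to separate the groups, and the share of all genes tested that did so was not counted.

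Higd1a (a mitochondrial protein induced by low oxygen, chromosome 9, 121848563 to 121858362) ran from 1.37 to 2.51 UMIs per 10000 in isotype tumours (median 1.65). It was at 2.82, 6.26, 3.44, 2.80 and 4.77 in B20-4.1.1 tumours 1, 2, 6, 8 and 9. In these fitted tumours the groups did not overlap, which is no result about treatment, because the gene was chosen for its small p. Values of the B20-4.1.1 tumours left out are not given for this gene. The log2 fold change was 1.23 ± 0.251 (SE) with an edgeR adjusted p of 0.237.

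Ctss (cathepsin S, the protease that trims the MHC class II invariant chain, chromosome 3, 95526786 to 95556403) ran from 16.1 to 26.2 in isotype tumours (median 18.5). It was at 27.8, 32.4, 29.2, 26.7 and 34.2 in the same B20-4.1.1 tumours. All 5 were above every isotype tumour, and isotype tumour 6 was the closest. The log2 fold change was 0.66 ± 0.154 (SE), edgeR adjusted p = 0.366. In the 4 B20-4.1.1 tumours left out for few members Ctss was at 19.7, 24.5, 23.2 and 19.2, which overlapped the isotype tumours.

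Arg1 (arginase 1, which consumes arginine, chromosome 10, 24915221 to 24927484) was at 0 to 1.27 UMIs per 10000 in isotype tumours (median 0.0466) and at 0, 2.96, 9.65, 6.53 and 8.22 in B20-4.1.1 tumours 1, 2, 6, 8 and 9. Of the 4 B20-4.1.1 tumours not fitted, 2 had none and the others had 8.79 and 5.20. Thus 3 of 9 B20-4.1.1 tumours had no UMI and overlapped the isotype group. The log2 fold change was 4.65 ± 0.972 (SE), edgeR adjusted p = 0.237. Without B20-4.1.1 pool 1, which held tumours 1 to 3, Arg1 was called by edgeR (adjusted p = 0.0424). The UMIs came from few cells: 6 of 121 isotype members had 16 UMIs in all, and 15 of 100 B20-4.1.1 members had 382, of which 8 cells had at least 10 UMIs and 1 cell had 95.

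Ecm1 (an extracellular matrix protein) ran from 0.559 to 1.97 in isotype and from 1.74 to 6.12 in B20-4.1.1 tumours, and Snx3 (a retromer sorting nexin) from 1.40 to 3.08 and from 2.64 to 4.30. In the other direction, Ccar1 (a cell cycle and apoptosis regulator) ran from 1.14 to 1.40 and from 0.522 to 0.747, without overlap among the fitted tumours. Its log2 fold change was -0.97 ± 0.229 (SE), with an edgeR adjusted p of 0.377. Fam96a and Twf2 (an actin-binding protein) did not overlap among the fitted tumours either, with log2 fold changes of -0.81 and -0.75. For Ccar1, Fam96a and Twf2, values of the B20-4.1.1 tumours left out are not given. Socs3 (a feedback inhibitor of cytokine signalling) ran from 2.46 to 5.40 and from 0.669 to 2.64 with overlapping ranges, and Plbd1 from 1.18 to 4.33 and from 1.05 to 1.87. For Socs3, 2 of the B20-4.1.1 tumours not fitted stood at 4.07 and 7.31.

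**Figure D4:**
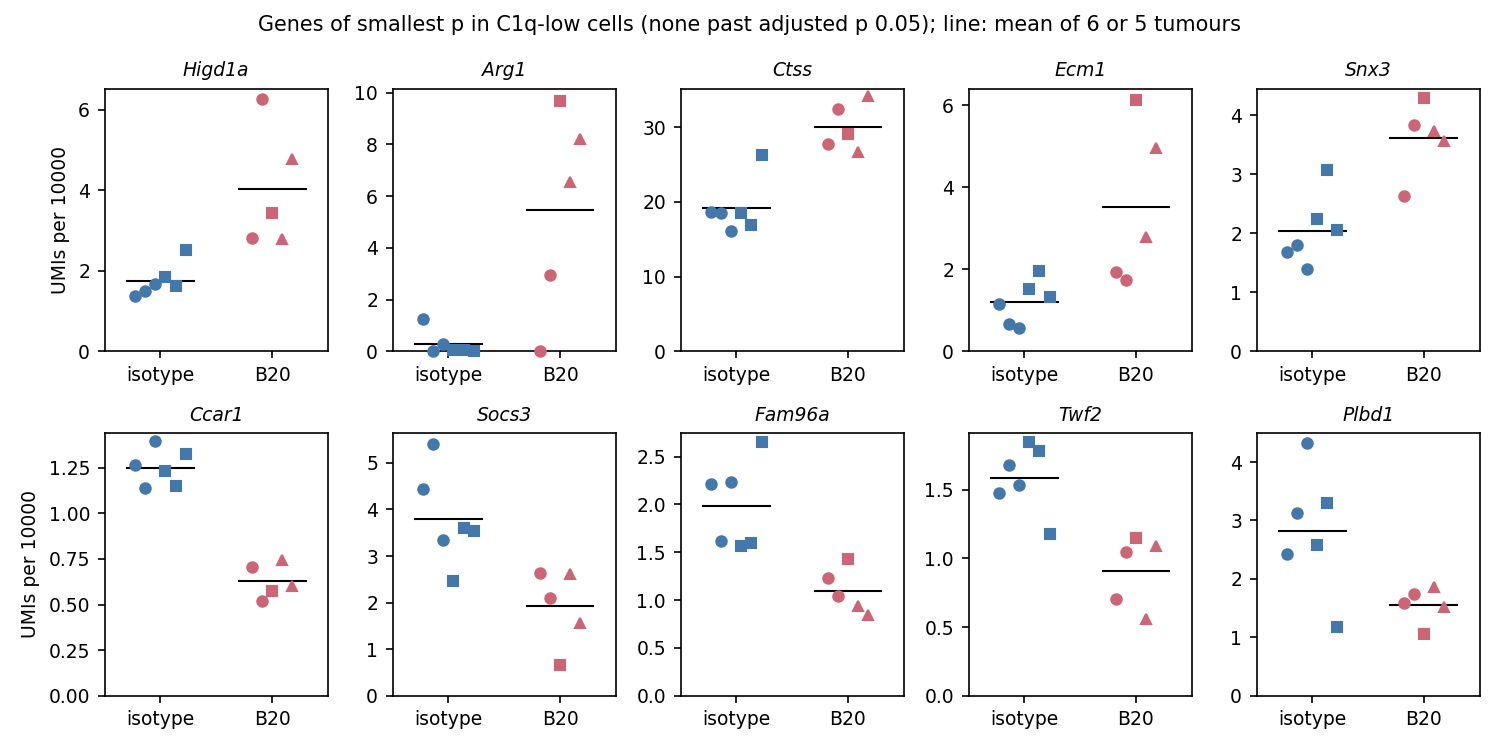
Levels of the 10 genes of smallest p in C1q-low cells, as UMIs per 10000 in each of 6 isotype and 5 B20-4.1.1 tumours, with lines at the means and marker shapes for pools as in the plot of shares. The genes were chosen for smallest p, so separation of the groups in some of them is no result about treatment. No gene passed edgeR's adjusted p of 0.05.

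The gene lists put these genes in context. Of the 40 hypoxia response genes, 21 passed the filter on low counts, 0 were called, and these 21 had a higher fitted value with B20-4.1.1 (median 0.70 on the log2 scale, 0.38 to 0.96 with 1 pool left out). Over all genes tested the median was -0.00 and 49.7% were higher. In 10 of the 21 the unadjusted p was under 0.05, beside 85 of all 1552 genes tested (5.48%), and no test of the list as a set was made. Genes above the filter mainly through 1 group can enter such a list, and 19 of the 40 were too low to be fitted.

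Among these genes, the glycolytic enzymes Ldha, Gapdh, Pgam1, Pgk1 and Tpi1 had log2 fold changes of 0.73, 0.69, 0.90, 0.81 and 0.74. The mitophagy receptors Bnip3 and Bnip3l had 1.58 and 0.71, Hilpda 1.94 and Mif 0.80. Several values rested on 1 isotype pool: without isotype pool 1 and without isotype pool 2, Pgk1 had 1.61 and 0.30, Bnip3 2.36 and 1.04, Bnip3l 1.07 and 0.38, and Hilpda 2.92 and 1.40. Without B20-4.1.1 pool 3 Hilpda had 1.31. Vegfa had 0.20 ± 0.755 (SE), with 0 to 1.98 UMIs per 10000 in isotype and 0.352 to 1.91 in B20-4.1.1 tumours, which overlapped wholly. Bnip3 was at 0.112 to 1.40 (median 0.879) in isotype tumours and at 0.528, 4.35, 2.20, 1.49 and 2.24 in the 5 B20-4.1.1 tumours, of which tumour 1 lay within the isotype range. Hilpda was at 0.0371 to 2.06 (median 0.718) and at 0.528, 3.48, 2.20, 5.23 and 4.83, again with tumour 1 within the isotype range.

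The list as a sum overlapped between groups. All 40 genes together were at 44.9 to 73.6 UMIs per 10000 in isotype tumours (median 63.5) and at 56.7, 139, 89.6, 71.9 and 109 in B20-4.1.1 tumours 1, 2, 6, 8 and 9. The lowest values were 44.9 and 46.7 in isotype tumours 4 and 5. Retnla was highest among isotype tumours in the same pair, and after thinning Bnip3 and Vegfa were in 0% of Retnla cells and in 24.7% and 24.1% of the others. B20-4.1.1 tumour 9 had both a high Retnla level (97.2) and a high hypoxia sum. The part of the mix of cells in these sums was not tested.

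The promoters of 3 of these genes are shown because Hilpda, Bnip3 and Higd1a had the highest fitted log2 fold changes of the hypoxia list. Each window holds the 250 bases before and 50 after the RefSeq transcript start on GRCm38.p6, 5′ to 3′ on the gene's strand, and capitals mark the letters ACGTG on either strand (CACGT on the other), the core that hypoxia-inducible factors bind. Bnip3 is on chromosome 7, 138909457 to 138909756, minus strand, with 2 matches. Both lie in 1 stretch, CACGTG, which reads the same on either strand. Hilpda is on chromosome 6, 29272376 to 29272675, plus strand, 1 of 2 listed starts, with 1 match. Higd1a is on chromosome 9, 121857747 to 121858046, minus strand, with 1 match.
Bnip3: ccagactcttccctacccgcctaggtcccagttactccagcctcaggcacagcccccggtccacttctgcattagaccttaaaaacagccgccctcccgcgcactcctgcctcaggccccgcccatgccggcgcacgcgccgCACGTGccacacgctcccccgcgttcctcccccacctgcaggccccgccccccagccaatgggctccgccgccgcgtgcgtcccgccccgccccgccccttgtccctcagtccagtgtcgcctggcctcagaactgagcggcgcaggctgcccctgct
Hilpda: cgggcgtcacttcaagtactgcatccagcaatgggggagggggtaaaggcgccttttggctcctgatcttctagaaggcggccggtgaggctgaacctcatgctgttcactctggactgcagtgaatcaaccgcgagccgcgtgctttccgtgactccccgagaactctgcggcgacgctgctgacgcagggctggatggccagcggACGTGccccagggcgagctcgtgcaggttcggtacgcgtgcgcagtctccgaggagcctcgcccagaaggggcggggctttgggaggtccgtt
Higd1a: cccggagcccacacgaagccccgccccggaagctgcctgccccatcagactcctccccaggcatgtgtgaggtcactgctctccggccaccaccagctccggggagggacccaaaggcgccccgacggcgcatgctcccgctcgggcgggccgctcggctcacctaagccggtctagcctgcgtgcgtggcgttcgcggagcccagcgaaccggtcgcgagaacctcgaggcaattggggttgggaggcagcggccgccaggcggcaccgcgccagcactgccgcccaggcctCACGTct
The motif was found in 19.6% of all 32851 windows. Counted by gene, it was in any window of 21.8% of 27025 genes and of 16 of the 19 fitted hypoxia genes that had a window. A match is a description of letters and not of binding.

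The 6 fitted MHC class II genes had higher fitted values with B20-4.1.1 (median log2 fold change 0.52), and 0 were called. H2-Aa had 0.65 ± 0.300 (SE), edgeR adjusted p = 0.866. The sum of the 8 listed genes was at 59.7, 72.5 and 88.2 UMIs per 10000 in isotype tumours 1 to 3, which formed isotype pool 1, and at 220, 215 and 170 in isotype tumours 4 to 6. The 5 B20-4.1.1 tumours ran from 148 to 283, above isotype pool 1 and overlapping isotype pool 2. Without isotype pool 2, H2-Aa and H2-Ab1 were called by edgeR (log2 fold changes 1.48 and 1.29, adjusted p = 0.0330 for each) and the median of the list was 1.38. Without isotype pool 1 the median was -0.00509 and neither gene was called.

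Of 18 immediate-early and stress genes, 16 had lower and 2 had higher fitted values with B20-4.1.1 (median -0.32 on the log2 scale), and 0 were called. The median was -0.02 without isotype pool 1 and -0.58 without isotype pool 2. Hsp90aa1, a chaperone, had -0.44 and Egr1 and Fosb, early transcription factors, had -0.96 and -0.76. The list summed to 116 to 222 UMIs per 10000 in isotype and to 101 to 153 in B20-4.1.1 tumours, with overlap. The matrix and remodelling list had 9 of 10 fitted genes higher and a median of 0.57, including Ctsl (cathepsin L, 2.22) and Vim (vimentin, 0.73). Of 8 Fc and complement receptors 7 were higher, with a median of 0.42 and C3ar1, the C3a receptor, at 1.30. Of 9 lipid handling genes 7 were higher (median 0.43), and none of the genes of these lists was called.

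The other lists are given as genes with higher and lower fitted values, with none called. The 12 fitted myeloid transcription factors were 6 higher and 6 lower (median 0.02), the 7 chemokine and growth factor receptors 3 and 4 (median -0.01), the 4 angiogenic and growth factors 2 and 2 (median -0.00), and the 7 inflammasome and NF-kB genes 3 and 4 (median -0.13). The 6 chemokines were 4 and 2 (median 0.14), the 6 immunoregulatory genes 4 and 2 (median 0.02), the 9 S100 and antimicrobial genes 4 and 5 (median -0.22) and the 6 MHC class I genes 6 and 0 (median 0.19). Of the interferon-stimulated and cell cycle lists 3 genes each were fitted, 2 higher and 1 lower in both. The 6 M2-associated genes were 3 and 3 (median 0.05), and the 4 M1-associated genes were 4 and 0 (median 0.25). The 5 fitted genes of the osteopontin list were 5 and 0 (median 0.20). Spp1, the ligand, had 1.34 ± 0.648 (SE), with 1.08 to 30.4 UMIs per 10000 in isotype tumours and 23.4 to 42.0 in the 5 B20-4.1.1 tumours, and its receptor chain genes Cd44 and Itgb1 had 0.02 and 0.15. None of the 5 VEGF receptor genes was high enough to be fitted: members held 116 UMIs of Nrp2, 52 of Nrp1, 11 of Flt1, 8 of Kdr and 0 of Flt4. The 18 fitted classical monocyte markers were 7 higher and 11 lower (median -0.14).

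**Figure D5:**
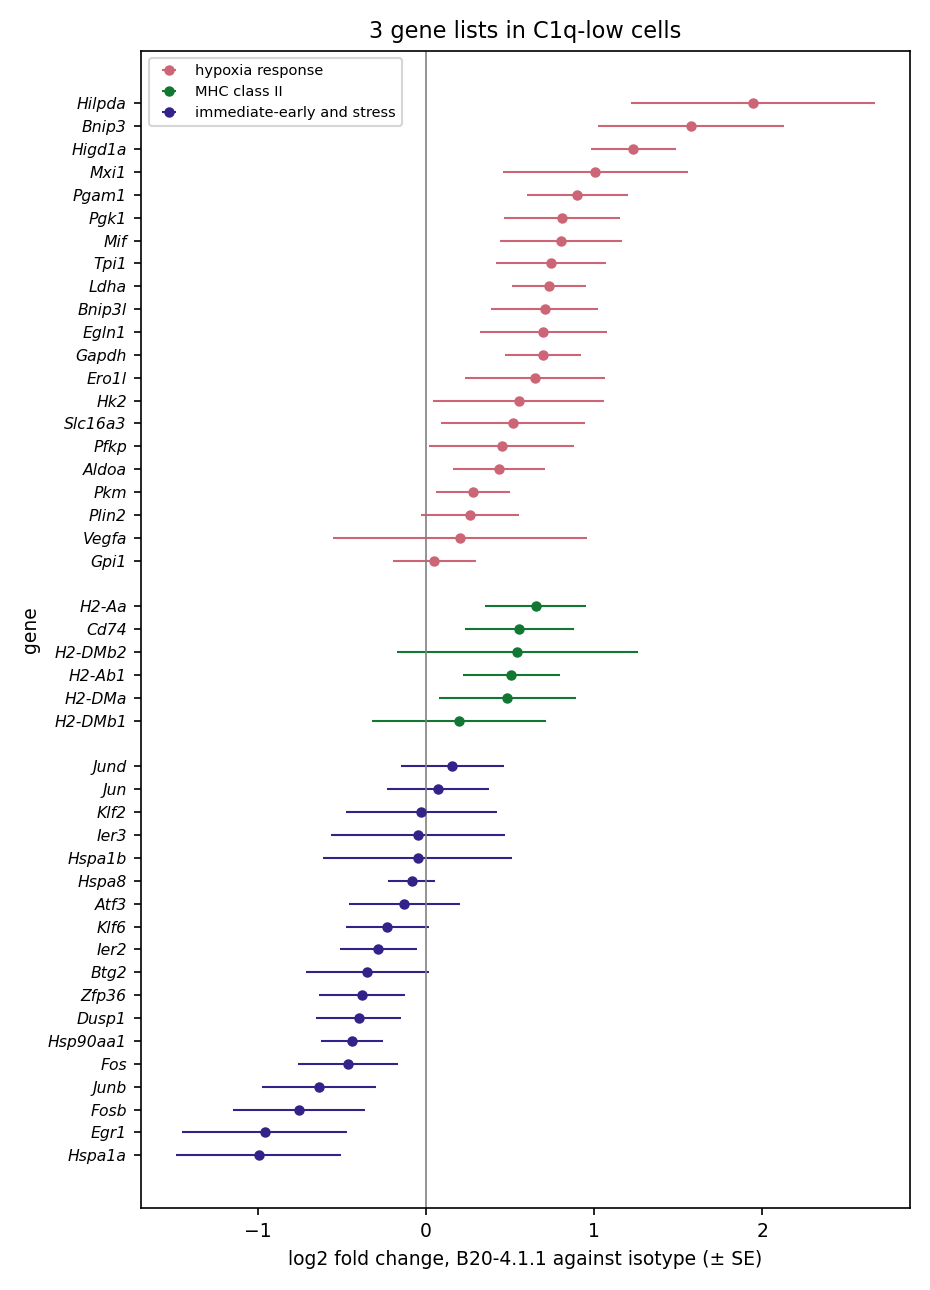
Fitted log2 fold change, B20-4.1.1 against isotype, in C1q-low cells of 6 and 5 tumours, with bars of 1 SE, for the genes of 3 lists that passed the filter. All 21 hypoxia and 6 MHC class II genes lie at or above 0 and 16 of 18 immediate-early and stress genes below it, while no single gene was called.

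A test of whether the change under B20-4.1.1 differed between C1q-low and C1q-high cells could use 4 tumours with 20 cells of both, 3 isotype and B20-4.1.1 tumour 9 alone, which was assumed to vary like the others. The class by treatment term, by edgeR's quasi-likelihood test, passed for 2 of 4352 genes (0.046%), Hist1h1b (a histone H1 gene of dividing cells) and Basp1 (a membrane signalling protein). For Hist1h1b the difference of log2 changes was 7.86 ± 0.838 (SE, edgeR adjusted p = 0.000949) and for Basp1 3.03 ± 0.466 (SE, edgeR adjusted p = 0.0211). The spread of the B20-4.1.1 arm was assumed and not measured, so these values describe tumour 9 against 3 isotype tumours and do not show a difference by treatment. Hist1h1b had 46 UMIs in members of B20-4.1.1 tumour 9 and 0 to 11 in each other tumour. With the 11 tumours that had 10 cells of both, 0 of 2585 genes were called, 77 had an unadjusted p under 0.05, and the differences were 3.39 ± 1.27 and 0.98 ± 0.546 (SE, edgeR adjusted p = 1 for both).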

How the data were processed

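Single-cell 3′ RNA sequencing of 15 tumours was analysed from the deposited matrices, which hold raw UMI counts per gene and per multiplexing oligonucleotide and which the authors made with Cell Ranger 6.1.2 (per the file headers). The submitters' processing notes also name bcl2fastq, Seurat 4.3.0 and build mm10. Each tumour had a matrix of its own, already assigned by its oligonucleotides, and the 15 matrices held 31053 genes and 30340 cells. The members and lists were chosen with earlier results of these data known.

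Cells with at least 2500 gene UMIs, below an upper limit on UMIs, and with at most 20% mitochondrial UMIs were kept. No doublet caller was run. Cells with a doublet's markers were removed only as far as the upper limit and the exclusion genes do so. T-like cells had at least 2 Cd3 UMIs and Krt8/Krt18-high cells at least 10 UMIs of those keratins. Levels are UMIs of a gene per 10000 summed UMIs. Shares of cells with a gene were computed after random thinning to 2500 UMIs. Tumours were the replicates and came from separate mice. Shares were compared by exact permutation of tumours. Counts were summed per tumour and tested with edgeR 4.0.16 (quasi-likelihood, TMM, filter on low counts, Benjamini-Hochberg adjustment) in R 4.3.3, with limma 3.58.1 and DESeq2 1.42.0 as alternatives. Each SE given for an edgeR fit was back-calculated, as the absolute log2 fold change divided by the square root of the quasi-likelihood F statistic. The planned minimum of 20 cells left 3 isotype and 1 B20-4.1.1 tumours, so the stated fallback of 10 cells was used. Genes named for treatment were the 5 of smallest p in each direction at a log2 CPM of at least 4, since none was called, leaving out genes of the rule, mitochondrial genes and unnamed gene models. The scripts were tested on simulated data. Positions are from GENCODE M21. The study's classes of tumours by response are not in the labels and were not compared.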

Additional observations from a re-analysis of the deposited data

Results flagged for a closer look

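In 4 of 48 groups of tumours the highest or lowest tumour stood apart from the rest by Dixon's criterion, which chance meets in about 1 in 20 groups. They were Arg1 at 1.27 UMIs per 10000 in isotype tumour 1, Ctss at 26.2 in isotype tumour 6, Fn1 at 16.2 in B20-4.1.1 tumour 2, and Ly6c2 at 3.50 in B20-4.1.1 tumour 9. The last 2 were set against the 5 B20-4.1.1 tumours with at least 10 members, and of the tumours left out, tumour 4 had Fn1 at 15.5 and tumour 5 had Ly6c2 at 4.19. The Arg1 value came from a tumour that also held 3 of the 4 members rich in S100a8 and S100a9.

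In the class by treatment term of edgeR, C1q-low and C1q-high cells of B20-4.1.1 tumour 9, set against 3 isotype tumours, stood apart for Hist1h1b by 7.86 and for Basp1 by 3.03 on the log2 scale. With a single B20-4.1.1 tumour the spread of that arm was not measured, and with 6 and 5 tumours no gene passed and the differences were 3.39 and 0.98 (edgeR adjusted p = 1 for both).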

How the results depend on the processing

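The share difference was -0.415 to 0.217 points with 1 pool left out, with a changed sign without B20-4.1.1 pool 1 (0.0444) and without isotype pool 2 (0.217), and it was 0.508 of cells other than T-like. Among C1q-low and C1q-high cells it ran from -0.583 to 16.8 points (-0.583 without isotype pool 1). No share test passed 0.05 in any setting run, and 20 alternatives kept the sign while 4 did not.

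Genes called for treatment numbered 0 of 1552 with edgeR, 2 of 1552 with DESeq2's Wald test and 52 of 12623 without a filter on low counts. By adjusted p the 52 began with S100a9, S100a8, Retnlg and Ngp, all of the neutrophil list. With 1 pool left out, 0 to 4 genes were called (1 of 1974 without B20-4.1.1 pool 1, 4 of 1543 without isotype pool 2). Of list genes 0 to 2 were called with 1 pool left out (1 and 2 without the same pools). The class by treatment term passed for 34 genes without the filter, 0 with 10 cells per tumour, 1 with a C1q limit of 0, 4 after thinning and 2 to 63 with 1 pool left out (63 without isotype pool 1). The cause of these changes was not tested. Without the filter the median of all genes moved to -0.11 on the log2 scale, with 42.6% higher against 49.7%; with median UMIs as a covariate 42.9% were higher. For the named genes 328 results kept their call, 10 passed the threshold and 0 changed sign. Of the list medians 8 moved. The fits at 40 cells per tumour, and the class by treatment term without isotype pool 2 or B20-4.1.1 pool 3, had too few tumours and were not run. No paired analysis was possible because the replicate numbers only name pools and tumours and each pool held 1 treatment. The number of members per tumour, 6 to 35, limits every value.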
